A study of Canis lupus familiaris with 24 samples.

Results

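CAMP, MMP9, CXCR2, SLPI and SERPINA1 are genes of neutrophil granules, of neutrophil recruitment and of the inhibitors that hold neutrophil proteases in check. They were followed in lymph node cells of 4 dogs with B-cell lymphoma, each sampled in a phase in which the disease was resistant to drugs and in a phase in which it was sensitive. The genes were found through the accession that the array files give for each probe, whatever its signal. This gave 10 of the 43603 probes and 5 of the 832 genes that could be given a symbol: 4 probes for MMP9, 2 each for SLPI and SERPINA1, and 1 each for CAMP and CXCR2. Of the 10 probes, 9 passed the filter on dim probes and were tested, among 34551 in all; the filter asked that all 3 arrays of some dog and phase be well above background.

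Dog 1 was a male Shih Tzu of 10 years, dog 2 a male Doberman of 9 years, dog 3 a castrated male French Bulldog of 3 years and dog 4 a spayed female French Bulldog of 5 years, with the same age given for both phases. Each dog and phase had 3 one-colour arrays, 24 in all. The cells came from peripheral lymph nodes by fine needle aspiration, so tumour cells, other node cells and blood were measured together. The labels name neither the drugs nor the time between the phases, and do not say whether the 3 arrays of a group came from separate aspirates. The p-values for a single dog thus measure only the spread between arrays, which may be technical. For each probe this spread was estimated once over all 8 groups, so widely spread arrays in any dog raise the SE in every dog.

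Neutrophils are short-lived white blood cells that store antimicrobial peptides and proteases in granules and release them where tissue is infected or damaged. Granule proteins are made mainly while the cells mature in the bone marrow, and circulating neutrophils enter tissue by following chemokines through receptors such as CXCR2. Antiproteases from plasma and from epithelial and myeloid cells bind the released proteases and limit damage to the tissue. Lymph nodes hold few neutrophils unless they are inflamed or mixed with blood.

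Per array, 71.0% to 80.9% of spots were well above background and the 75th percentile of signal was 676 to 1117. Levels below are log2 of the processed signal minus that percentile, so a level of 0 equals it, and levels of different probes were not compared with each other. The median r between arrays was 0.992 within a dog and phase, 0.976 between the phases of a dog and 0.952 between dogs. The B cell genes MS4A1 and CD40 were well above background on all 24 arrays, with changes of their brightest probes between -0.29 and 0.35 in the 4 dogs. The other CD40 probe had changes of 0.67 in dog 1, 0.48 in dog 3 and 0.23 in dog 4 that passed the adjusted p under 2-fold, and of 0.00192 in dog 2. The arrays sat on 7 slides. Slide 1 held both phases of dog 1, slide 3 of dog 2 and slide 4 of dog 3, while no slide held both phases of dog 4, in which slide and phase cannot be told apart.

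The phases differed in opposite ways between the dogs. In dog 1 all 5 genes fell in the resistant phase, and in dog 3 all but CXCR2 fell. In dog 2 CAMP and MMP9 rose while SERPINA1 fell. In dog 4 none of the 5 passed. A probe was called when it passed an adjusted p of 0.05 (limma on the 24 arrays, Benjamini-Hochberg over all tested probes) and a change of at least 2-fold. Where a gene had several probes, the brightest stood for it. In dog 1, 5 of 5 genes (8 of 9 probes) were called lower, against 7.76% of all tested probes, and 0 higher, against 3.55%. With the slide as a block, within slide 1 and after normexp background correction, 3 of 5 were called lower, without CXCR2 and SLPI. In dog 3, 4 of 5 genes (8 of 9 probes) were called lower, against 5.5% of all probes, and 0 higher, against 1.26%. The 8 include a dim MMP9 probe (A_11_P053471) with 0 of 3 resistant and 1 of 3 sensitive arrays well above background there. That probe passed the filter only through the resistant phase of dog 4, where it is high. In dog 2, 2 genes (3 probes) were called higher, against 3.54%, and 1 gene (2 probes) lower, against 10.1%. SLPI was also called higher within slide 3 (1.21), where dog 2 had 1 sensitive array. In dog 4, 0 of 5 genes and 1 of 9 probes were called, the 1 being that dim MMP9 probe, called higher. Over all probes 3.77% were called higher there and 1.57% lower. Counted by arrays alone, all resistant arrays lay below all sensitive arrays for 5 genes in dog 1 (33.6% of all tested probes) and 4 in dog 3 (27.2%), and for 1 gene each in dog 2 (27.6%) and dog 4 (25%). They lay above them for 3 genes in dog 2 (42.8%) and 1 in dog 4 (32.1%), and for none in dog 1 (29.7%) or dog 3 (30.5%). The median change of the 5 genes, from dog 1 to dog 4, was -2.34, 1.16, -4.69 and 0.21, beside a median of -0.05, 0.10, 0.02 and 0.05 over all tested probes. In aspirates, fewer cells of a type and less RNA per cell cannot be told apart.

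**Figure D1:**
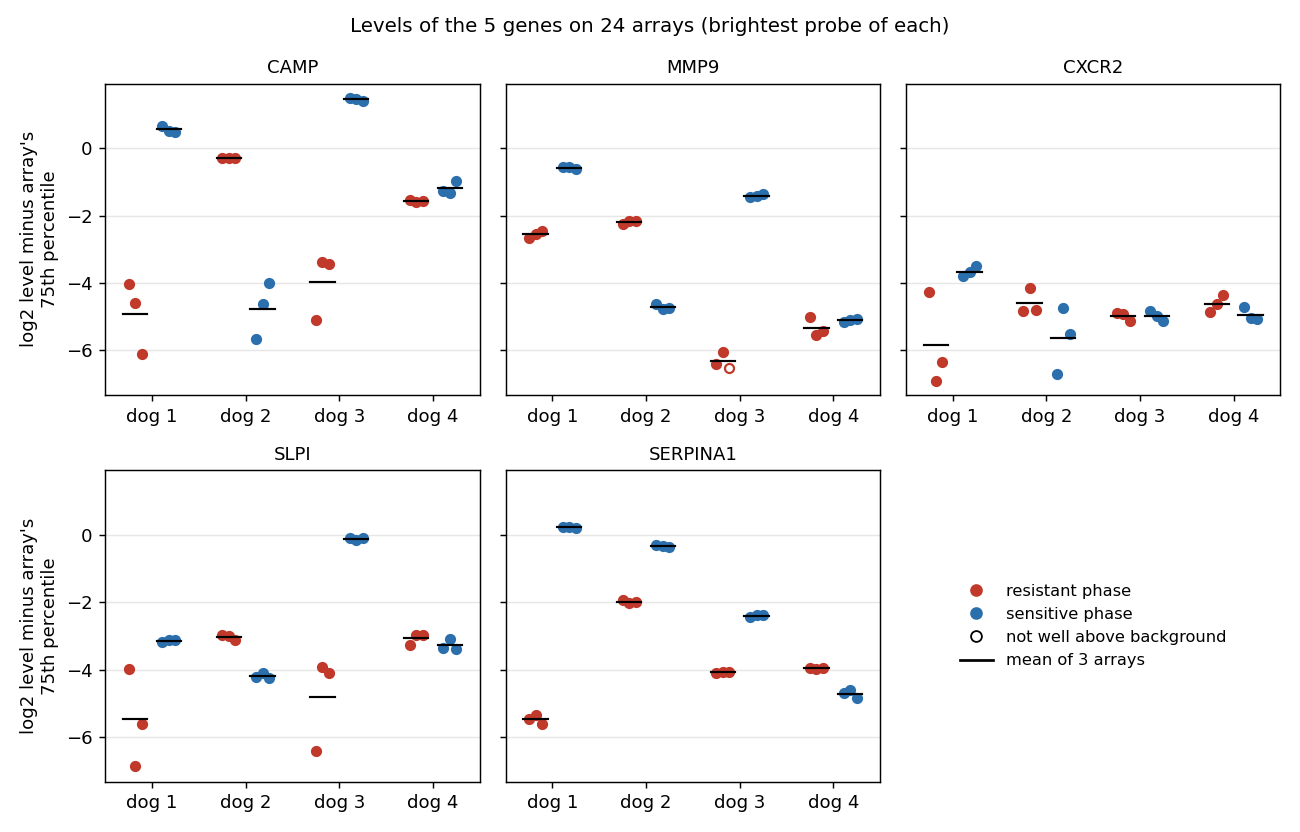
Levels of the brightest probe of CAMP, MMP9, CXCR2, SLPI and SERPINA1 on each of the 24 arrays (y axis: log2 signal minus the 75th percentile of the array; x axis: dog, with the resistant phase left of the sensitive phase). Each point is an array, open where the probe was not well above background, and each line is the mean of 3 arrays; CAMP spans levels from -6.11 to 1.5.

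CAMP codes for cathelicidin, an antimicrobial peptide stored as an inactive precursor in the granules of neutrophils. In dog 1 its level (probe A_11_P0000020065) was -4.03, -4.58 and -6.11 on the resistant arrays, against 0.66, 0.52 and 0.50 on the sensitive arrays. In dog 3 it was -5.09, -3.37 and -3.42 on the resistant arrays, against 1.5, 1.46 and 1.42 on the sensitive arrays. In both dogs every resistant array lay below every sensitive array, and the resistant arrays were widely spread where the sensitive arrays lay close together. Dog 2 showed the opposite, with -0.28, -0.27 and -0.28 on the resistant arrays, against -5.66, -4.63 and -4.00 on the sensitive arrays. Here the low and widely spread group was the sensitive one.

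CAMP thus fell by 5.46 (SE 0.47) in dog 1 and by 5.42 (SE 0.47) in dog 3 on the log2 scale, which is 44.1-fold and 42.8-fold, and rose by 4.49 (SE 0.47), or 22.4-fold, in dog 2. Limma's adjusted p was 1.58e-08 in dog 1, 2.59e-08 in dog 3 and 1.47e-07 in dog 2. In dog 4 the resistant arrays were at -1.54, -1.60 and -1.56, against -1.28, -1.31 and -0.98 on the sensitive arrays, and the change of -0.38 (SE 0.47) did not pass (adjusted p = 0.549). The resistant arrays of dog 4 lay just below its sensitive arrays. Within slide 1 the change in dog 1 was -4.58, within slide 4 that in dog 3 was -6.55, and within slide 3 that in dog 2 was 3.72. Without resistant array 3 of dog 1 the change there was -4.86. CAMP was well above background on all 24 arrays. Its highest group mean was that of dog 3 in the sensitive phase (1.46), then dog 1 sensitive (0.56), dog 2 resistant (-0.28), dog 4 sensitive (-1.19) and dog 4 resistant (-1.56), and the arrays of neighbours in this order did not overlap. The 3 lowest groups, dog 3 resistant (-3.96), dog 2 sensitive (-4.76) and dog 1 resistant (-4.90), overlapped with their neighbours.

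MMP9 codes for matrix metalloprotease 9, also called gelatinase B, which neutrophils carry in their tertiary granules and which macrophages and some tumours make too. In dog 1 the brightest of its 4 probes (A_11_P0000019937) was at -2.66, -2.53 and -2.44 on the resistant arrays, against -0.55, -0.55 and -0.62 on the sensitive arrays. In dog 2 it was at -2.24, -2.17 and -2.16 on the resistant arrays, against -4.63, -4.76 and -4.75 on the sensitive arrays. In dog 3 the probe was at -6.40, -6.04 and -6.51 on the resistant arrays, against -1.43, -1.41 and -1.37 on the sensitive arrays. The phases did not overlap in any of these 3 dogs, and the direction in dog 2 was opposite to that in dogs 1 and 3. Of the resistant arrays of dog 3, 2 of 3 had the probe well above background.

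MMP9 fell by 1.97 (SE 0.11; adjusted p = 4.09e-11 by limma), or 3.92-fold, in dog 1. MMP9 in dog 3 fell by 4.92 (SE 0.11; adjusted p = 1.62e-16), or 30.2-fold. It rose by 2.52 (SE 0.11; adjusted p = 7e-13), or 5.73-fold, in dog 2. In dog 4 it was at -5.02, -5.53 and -5.43 on the resistant arrays, against -5.15, -5.08 and -5.08 on the sensitive arrays, which overlapped, and the change of -0.22 (SE 0.11) did not pass (adjusted p = 0.113). Both phases of dog 4 and the resistant phase of dog 3 held the 3 lowest of the 8 group means. The sensitive phase of dog 1 held the highest, at -0.57, and among neighbours in the order only the phases of dog 4 overlapped.

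The 4 MMP9 probes fell into bright and dim pairs. The second probe (A_11_P053796) gave changes of -1.98, 2.49, -4.60 and -0.01 in dogs 1 to 4, and across the 8 group means its Pearson r with the first was 0.999. The third probe (A_11_P053481) was well above background on 3 of the 24 arrays and was not tested. These were resistant array 1 of dog 1 at -3.59, sensitive array 3 of dog 1 at -6.08 and resistant array 2 of dog 3 at -4.05. On both resistant arrays the other arrays of the group lay at -6.40 or lower.

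The fourth MMP9 probe (A_11_P053471) went another way. In dog 4 it was at -5.03, -5.16 and -5.18 on the resistant arrays, against -6.51, -8.54 and -8.46 on the sensitive arrays. All 3 resistant arrays of dog 4 were well above background, against 1 of 3 sensitive arrays. The probe passed the filter on dim probes only through this resistant group, where it is high, so its call in dog 4, the 1 among the 9 probes there, was favoured by the filter and is given as a description with no test. In dog 3 the same probe was called lower, but with 0 of 3 resistant and 1 of 3 sensitive arrays well above background no fold can be given. On the arrays of dogs 1 and 2 it was not well above background in either phase. Its r with the brightest probe over the 8 group means was -0.17.

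**Figure D2:**
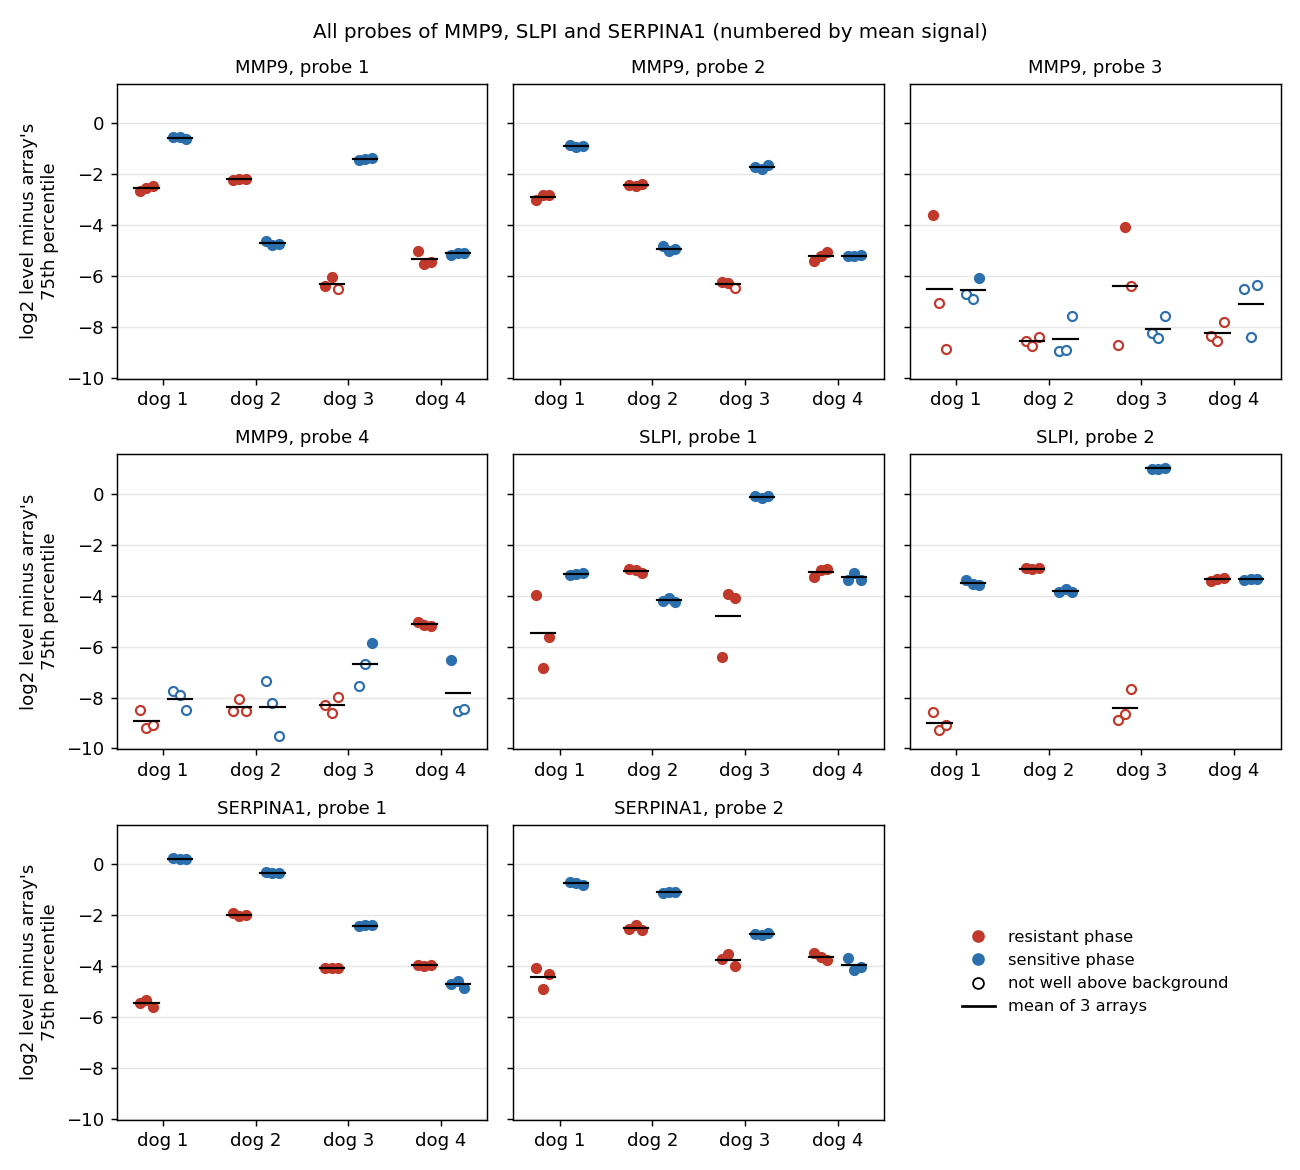
Levels of the 4 probes of MMP9, the 2 of SLPI and the 2 of SERPINA1 on the 24 arrays (axes and symbols as for the levels of the 5 genes; probes numbered from the brightest). The dim MMP9 probes are mostly open symbols, and the second SLPI probe is open on all 6 resistant arrays of dogs 1 and 3.

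CXCR2 codes for the receptor through which neutrophils follow CXCL8 and related chemokines. In dog 1 its probe (A_11_P051226) was at -4.25, -6.90 and -6.33 on the resistant arrays, against -3.80, -3.67 and -3.50 on the sensitive arrays. All 3 resistant arrays were below the sensitive ones, but the one on slide 1, with the sensitive arrays, lay much closer to them than the others on slide 2. CXCR2 fell by 2.17 (SE 0.50; limma's adjusted p = 0.00125), or 4.51-fold, in dog 1. Within slide 1 the change was -0.60 and did not pass (adjusted p = 0.390), and without resistant array 1 it was -2.96.

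In dog 2 CXCR2 was at -4.83, -4.16 and -4.79 on the resistant arrays, against -6.70, -4.73 and -5.50 on the sensitive arrays. The phases overlapped, and the change of 1.05 (SE 0.50; limma's adjusted p = 0.0790) did not pass. It was 1.51 (adjusted p = 0.0199) without sensitive array 2, and 0.52 (adjusted p = 0.395) without sensitive array 1. In dog 3 the levels lay between -5.14 and -4.89 in the resistant phase and between -5.12 and -4.83 in the sensitive phase, with a change of -0.01 (SE 0.50; adjusted p = 0.994). In dog 4 they lay between -4.86 and -4.36 in the resistant phase and between -5.08 and -4.72 in the sensitive phase, with a change of 0.33 (SE 0.50; adjusted p = 0.621). CXCR2 did not move with CAMP and MMP9 in dog 3, where its phases overlapped throughout. Its only probe was well above background on every array but dim, with a processed signal of 7.68 to 67.2. Its lowest level, -6.90 on resistant array 2 of dog 1, lay near the lowest of any probe well above background there (-7.22). Of its 8 group means, that of dog 1 in the sensitive phase (-3.66) stood apart from the next, and the arrays of all other neighbours in the order overlapped.

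SLPI codes for secretory leukocyte protease inhibitor, which blocks neutrophil elastase and cathepsin G and is made by glandular epithelium, neutrophils and macrophages. In dog 1 its brighter probe (A_11_P00000500) was at -3.97, -6.84 and -5.60 on the resistant arrays, against -3.17, -3.13 and -3.11 on the sensitive arrays. In dog 3 it was at -6.40, -3.92 and -4.09 on the resistant arrays, against -0.09, -0.15 and -0.09 on the sensitive arrays. The resistant arrays were below the sensitive ones in both dogs, and they were split by slide, since in each dog 1 resistant array shared the slide of the sensitive arrays and the others did not. In dog 2 the resistant arrays were at -2.96, -3.0 and -3.11, against -4.22, -4.08 and -4.23 on the sensitive arrays. Here every resistant array lay above every sensitive array. The SD in dog 2 was 0.08 in both phases, against 1.44 and 1.39 in the resistant phases of dogs 1 and 3. The fit pools these spreads into the SE used for every dog.

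SLPI fell by 2.34 (SE 0.56; limma's adjusted p = 0.00178), or 5.06-fold, in dog 1. The gene fell by 4.69 (SE 0.56; adjusted p = 1.55e-06), or 25.9-fold, in dog 3. Within slide 1 the change in dog 1 was -0.84 (adjusted p = 0.0373), under 2-fold, and without resistant arrays 1 or 2 of dog 1 it was -3.09 or -1.65. Within slide 4 the change in dog 3 was -6.30, and without resistant array 1 it was -3.89. The change of 1.16 (SE 0.56) in dog 2 did not pass (adjusted p = 0.0848), while within slide 3 it was 1.21 with an adjusted p of 0.00378. In dog 4 the resistant arrays were at -3.27, -2.98 and -2.95, against -3.36, -3.09 and -3.37 on the sensitive arrays. These overlapped, and the change of 0.21 (SE 0.56; adjusted p = 0.796) did not pass.

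The other SLPI probe (A_11_P054756) gave larger falls with less spread. In dog 1 it was at -8.58, -9.28 and -9.09 on the resistant arrays, against -3.37, -3.53 and -3.57 on the sensitive arrays. The arrays of dog 3 were at -8.87, -8.66 and -7.66 in the resistant phase, against 0.97, 0.99 and 1.04 in the sensitive phase. None of these 6 resistant arrays was well above background, so the falls have only a bound. By this probe the fall of SLPI was at least 9.63-fold in dog 1 (limma's adjusted p = 1.59e-13) and at least 174-fold in dog 3 (adjusted p = 1.41e-16). Each bound sets the mean of the sensitive arrays against the mean, over the resistant arrays, of the lowest signal of any probe well above background there or the probe's own where that was higher. In dog 2 the resistant arrays were at -2.91, -2.96 and -2.92, against -3.86, -3.75 and -3.85 on the sensitive arrays, a change of 0.89 (SE 0.21; adjusted p = 0.00129) that stayed under 2-fold. In dog 4 the change was 0.01 (SE 0.21; adjusted p = 0.983). The SLPI probes had an r of 0.939 over the 8 group means, and both placed dog 3 in the sensitive phase highest. With the brighter probe the next 4 group means, from -3.02 to -3.27, overlapped with their neighbours, and so did the 3 lowest, dog 2 sensitive (-4.18), dog 3 resistant (-4.80) and dog 1 resistant (-5.47).

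SERPINA1 codes for alpha-1 antitrypsin, the main plasma inhibitor of neutrophil elastase, made chiefly by hepatocytes and also by monocytes, macrophages and neutrophils. In dog 1 its brighter probe (A_11_P050401) was at -5.45, -5.33 and -5.60 on the resistant arrays, against 0.24, 0.23 and 0.21 on the sensitive arrays. In dog 2 it was at -1.92, -2.01 and -1.98 on the resistant arrays, against -0.30, -0.33 and -0.35 on the sensitive arrays. In dog 3 it was at -4.09, -4.05 and -4.06 on the resistant arrays, against -2.44, -2.39 and -2.39 on the sensitive arrays. SERPINA1 was thus lower in the resistant phase of these 3 dogs with no overlap, also in dog 2, where CAMP and MMP9 rose.

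SERPINA1 fell by 5.69 (SE 0.06; limma's adjusted p = 8.25e-22), or 51.6-fold, in dog 1, by 1.65 (SE 0.06; adjusted p = 2.08e-14), or 3.14-fold, in dog 2 and by 1.66 (SE 0.06; adjusted p = 6.24e-14), or 3.17-fold, in dog 3. In dog 4 it was at -3.95, -3.97 and -3.96 on the resistant arrays, against -4.68, -4.59 and -4.85 on the sensitive arrays. This was a change of 0.75 (SE 0.06; adjusted p = 8.15e-09) that stayed under 2-fold, with all resistant arrays above all sensitive arrays. The other probe (A_11_P194363) gave -3.69, -1.41, -1.0 and 0.33 in dogs 1 to 4, with calls in dogs 1 to 3, and an r of 0.994 with the first over the 8 group means. Within slides 1, 3 and 4 the changes of the brighter probe in dogs 1 to 3 were -5.68, -1.63 and -1.68. The order of its 8 group means ran from dog 1 sensitive (0.23) and dog 2 sensitive (-0.32) down to dog 4 sensitive (-4.71) and dog 1 resistant (-5.46), with no overlap between neighbours.

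**Figure D3:**
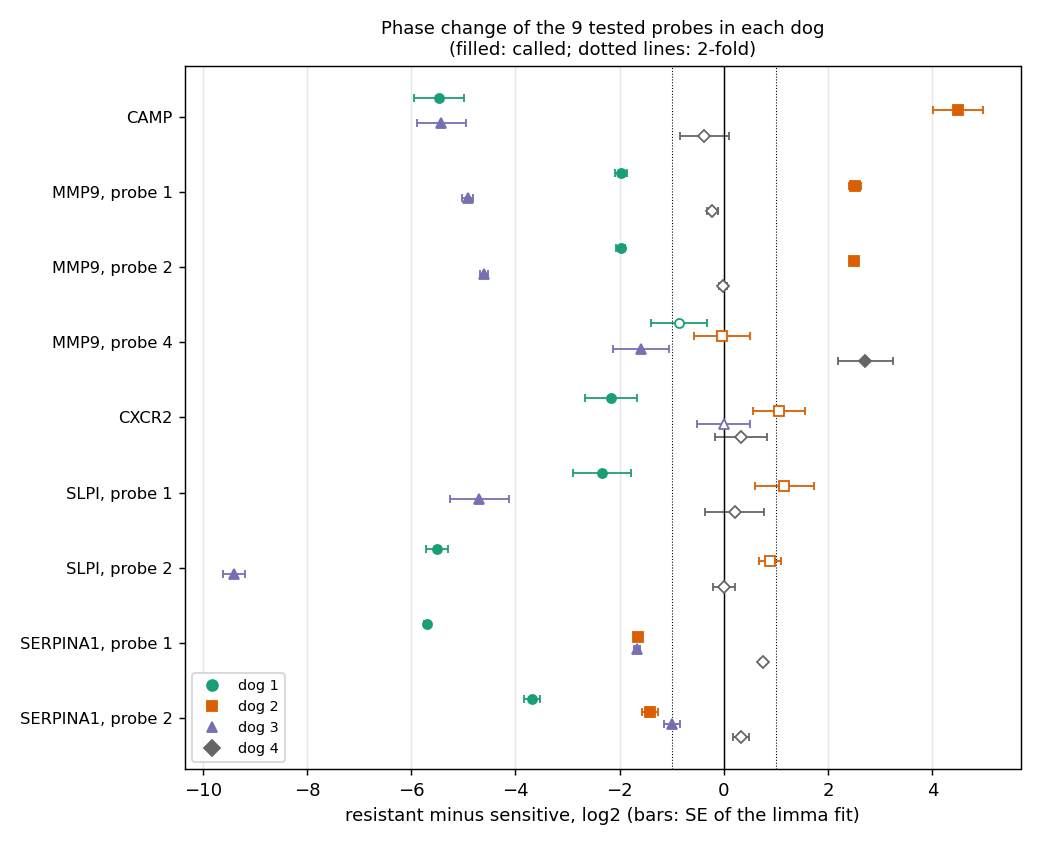
Change between the phases (resistant minus sensitive, log2) of the 9 tested probes in dogs 1 to 4, with the SE of the limma fit as bars. Filled symbols passed an adjusted p of 0.05 and 2-fold. The symbols of dog 2 lie right of 0 for CAMP and the brighter MMP9 probes and left of 0 for both SERPINA1 probes. For the second SLPI probe in dogs 1 and 3 no resistant array was well above background, so its falls there have only a bound.

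Across the 4 dogs none of the 5 genes passed. Limma was fitted to the mean of each dog and phase, blocked by dog. The mean change was -1.69 (SE 1.83, n = 4 dogs; adjusted p = 0.865) for CAMP and -1.15 (SE 1.2; adjusted p = 0.862) for MMP9. It was -0.20 (SE 0.54; adjusted p = 0.948) for CXCR2, -1.42 (SE 1.02; adjusted p = 0.846) for SLPI and -2.06 (SE 1.03; adjusted p = 0.846) for SERPINA1. Over all probes 0 of 34551 (0%) passed, and 2129 (6.16%) had an unadjusted p under 0.05, with none of the 9 probes of the 5 genes among them. By sign alone, SERPINA1, MMP9 and CAMP were lower in 3 of 4 dogs, and SLPI and CXCR2 in 2 of 4. SERPINA1 was called lower in dogs 1, 2 and 3, but MMP9, CAMP and SLPI only in dogs 1 and 3 and CXCR2 only in dog 1. The changes of CAMP (-0.38) and MMP9 (-0.22) in dog 4 and of CXCR2 (-0.01) in dog 3 did not pass. The mean of SERPINA1 was -0.86 without dog 1, and that of CAMP ran from -3.75 without dog 2 to -0.44 without dog 1 and -0.45 without dog 3. The mean of SLPI was -0.33 without dog 3 and -2.28 without dog 2. MMP9 had a mean of 0.11 without dog 3 and of -2.37 without dog 2, and CXCR2 one of 0.46 without dog 1 and of -0.62 without dog 2, with signs that changed without dog 3 and dog 1. When the 24 arrays were fitted with the group as a random block, SERPINA1 passed (adjusted p = 0.0195) and the other 4 genes did not. In that fit 2160 of the 34551 probes passed, and 1 correlation within groups (0.82) was used for all probes. It draws on 24 arrays of 4 dogs in place of 1 mean per dog and phase, so its p-values do not rest on the spread between dogs alone.

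The phase change differed between the dogs for every one of the 9 tested probes, as it did for 80.5% of all probes (limma's F-test of the dog-by-phase interaction), where the fourth MMP9 probe had been let in by the 1 group in which it is high. Adjusted p-values were 3.33e-10 for CAMP, 1.46e-16 for MMP9, 0.00295 for CXCR2, 1.08e-05 for SLPI and 1.37e-19 for SERPINA1. The changes of CAMP spanned 9.95 on the log2 scale between dogs 1 and 2, and those of CXCR2 spanned 3.22. CAMP and both bright MMP9 probes were called lower in dogs 1 and 3 and higher in dog 2, a pattern of 33 of 34548 probes (0.0955%). Both SERPINA1 probes were called lower in dogs 1, 2 and 3, as were 1.43% of all probes. Both patterns were chosen after the values were seen and describe these arrays.

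Among the 5 genes, the group means of CAMP and SLPI ran most alike (r = 0.867 over 8 means), followed by CAMP and CXCR2 (0.735) and CAMP and MMP9 (0.584). SERPINA1 had an r of 0.31 to 0.46 with the other 4. The 8 means come from 4 dogs, so these values are descriptions. Of 717 other genes with a symbol, CE9 (r = 0.897), ACTG1 (0.888) and SLPI ran most like CAMP. ADORA2B (0.941), FCGR1A (0.912) and ADGRE3 (0.895) ran most like MMP9, and ACTG1 (0.911), NFKBIL1 (0.866) and IL1B (0.862) most like CXCR2. ATP2A2 (0.967), ADIPOQ (0.930) and CAMP ran most like SLPI, and RHCE (0.919), IL1A (0.909) and PLA2G7 (0.896) most like SERPINA1. A high r did not mean a change of similar size: the group means of ACTG1 ran from 8.25 to 8.53 and those of ATP2A2 from -0.29 to -0.14, while FCGR1A changed by -3.67, 1.62, -2.65 and 0.46 in dogs 1 to 4. IL1B was well above background on 3 arrays, the sensitive ones of dog 1.

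Of 29 further neutrophil granule and oxidase genes listed, 4 could be named on the array and 3 were tested. In dogs 1 to 4, 0, 0, 1 and 0 were called lower (7.76%, 10.1%, 5.5% and 1.57% of all probes). Called higher were 1, 0, 0 and 0 (3.55%, 3.54%, 1.26% and 3.77% of all probes). ELANE, coding for neutrophil elastase, rose by 1.44 (SE 0.41) in dog 1, where 1 of 3 sensitive arrays was well above background, and fell by 2.12 (SE 0.41) in dog 3, where 2 of 3 resistant arrays were. In dogs 2 and 4 its changes were 0.08 and 0.44 without a call, so in dog 1 ELANE and CAMP were called in opposite directions. The NADPH oxidase subunit genes CYBA and CYBB made 0 calls, with changes between -0.44 and 0.62 in the 4 dogs. DEFB1, coding for a defensin of epithelium, was not well above background on any array. The median change of the 3 tested genes was 0.62, 0.08, 0.26 and 0.25 in dogs 1 to 4.

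Of 30 receptor and attractant genes of neutrophils, 8 were tested, and 4, 2, 1 and 1 were called lower in dogs 1 to 4 and 0, 1, 1 and 0 higher. Over all probes, 7.76%, 10.1%, 5.5% and 1.57% were called lower in dogs 1 to 4 and 3.55%, 3.54%, 1.26% and 3.77% higher. C5AR1, coding for the receptor of the complement fragment C5a, fell by 4.93 (SE 0.12; 2 of 3 resistant arrays well above background) in dog 1. In dog 2 it fell by 2.18 (SE 0.12). Its changes of -0.04 and -0.55 in dogs 3 and 4 were not called. ADGRE2, an adhesion receptor gene of myeloid cells, fell at least 15.9-fold in dog 1 and fell by 2.98 (SE 0.19) in dog 3. It had a change of 0.91 in dog 2, and its call in dog 4 (-1.27) rested on 1 of 6 arrays well above background. CXCL8, the chemokine that CXCR2 binds, fell by 1.22 (SE 0.13) in dog 1. Its changes were -0.63, 0.40 and 0.64 in dogs 2 to 4, and its other 3 probes had no resistant array well above background in the 4 dogs. In dog 2 all 3 of these probes were well above background on 3 of 3 sensitive arrays and were called lower, though the brightest was not called there. In dog 1 the 3 were also called lower, with 3, 0 and 2 of 3 sensitive arrays well above background. The last 2 passed the filter on dim probes only through the sensitive phase of dog 2, where they are high. The first passed it only through the sensitive phases of dogs 1 and 2. Their calls in dog 2, and that of the first in dog 1, were thus favoured by the filter and are given as a description with no test.

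The other 5 genes of that list were cytokines and an adhesion molecule. IL1B, coding for interleukin-1 beta, fell at least 2.49-fold in dog 1 and was below background in the others. IL6 rose by 1.86 (SE 0.28) in dog 2 (1 of 3 sensitive arrays well above background) and was at least 2.97-fold higher in dog 3. CSF2, a growth factor gene of granulocytes and macrophages, was at least 1.67-fold lower in dog 2. Its other probe had a change of -0.74 there that did not pass (limma's adjusted p = 0.272). TNF made 0 calls, with changes between -0.68 and 0.07. SELE, coding for the endothelial selectin that slows neutrophils, made 0 calls with its brighter probe (-0.80 in dog 1). The other probe was called lower in dog 1 and in dog 3, where it fell by 1.72. In dog 1 it was well above background on 0 of 3 resistant and 3 of 3 sensitive arrays, so no measured size is given. Its changes of -0.88 in dog 2 and 0.25 in dog 4 were not called.

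Of 28 further antiprotease genes listed, 5 were tested, and 3, 2, 2 and 0 were called lower in dogs 1 to 4 (7.76%, 10.1%, 5.5% and 1.57% of all probes) and 0 higher. TIMP2, an inhibitor of matrix metalloproteases, fell by 1.12, 2.29 and 1.03 (SE 0.04 each) in dogs 1, 2 and 3. TIMP1, which binds MMP9, fell by 1.01 and 1.15 (SE 0.18 each) in dogs 1 and 3, with changes of -0.47 and -0.33 in dogs 2 and 4. WFDC2, a relative of SLPI, fell by 2.41 (SE 0.70; 1 of 3 resistant arrays well above background) in dog 1. It passed the filter on dim probes only through the sensitive phase of dog 1, where it is high, so this call was favoured by the filter. SERPINF1, coding for pigment epithelium-derived factor, fell by 1.17 (SE 0.12) in dog 2, while its other probe changed by -0.74 there, under 2-fold. RECK, a membrane inhibitor of metalloproteases, made 0 calls. The list's median change was -1.01, -0.47, -0.46 and -0.18 in dogs 1 to 4. Of the cathepsin genes CTSD, CTSK and CTSS, the tested members of a list of other proteases, all 3 fell in dog 2, by 2.25, 1.23 and 1.34. All 3 were called lower there, against 10.1% of all probes, and 0 were called in dogs 1, 3 and 4. Over all probes 7.76%, 5.5% and 1.57% were called lower in dogs 1, 3 and 4 and 3.55%, 1.26% and 3.77% higher. Of the tested granulocyte regulators, GFI1, a transcription repressor gene, fell by 1.36, 1.31 and 1.06 (SE 0.06 each) in dogs 1, 2 and 4, with -0.90 in dog 3, and SOCS3 made 0 calls.

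**Figure D4:**
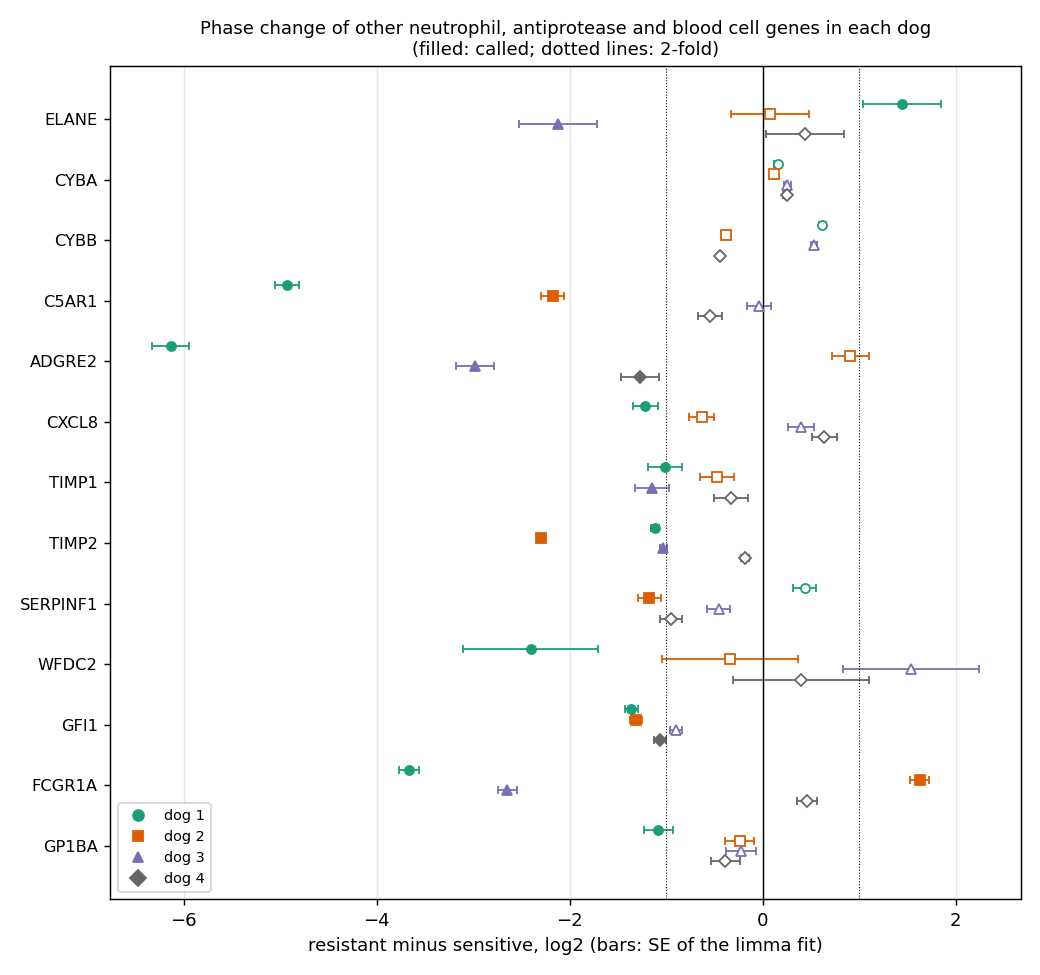
Change between the phases (resistant minus sensitive, log2, bars: SE of the limma fit) of other neutrophil, antiprotease and blood cell genes in dogs 1 to 4. Filled symbols were called, which for ADGRE2 in dog 4 rested on arrays mostly below background; C5AR1 and ADGRE2 lie furthest left in dog 1, and the oxidase genes CYBA and CYBB lie within 2-fold.

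Genes of other cell types moved beside the 5 genes. Of the platelet genes, GP1BA fell by 1.08 (SE 0.15) in dog 1 with changes between -0.39 and -0.22 in dogs 2 to 4, and ITGA2B made 0 calls. FCGR1A, an Fc receptor gene of monocytes, macrophages and activated neutrophils, fell by 3.67 (SE 0.10) in dog 1, rose by 1.62 (SE 0.10) in dog 2 and fell by 2.65 (SE 0.10) in dog 3, like MMP9. In dog 3 the macrophage genes CD163 and CD86 fell by 1.33 and 1.12, while in dog 1 they had changes of 0.53 and -0.51, so 3, 0 and 1 of 4 macrophage genes were called lower in dogs 3, 2 and 1 (5.5%, 10.1% and 7.76% of all probes). In dog 2 the eosinophil receptor gene CCR3 rose by 5.21 (SE 0.21), as it did by 1.29 (SE 0.21) in dog 3, and the mast cell genes CMA1 and FCER1A fell in dog 2 by 3.07 and 1.51. Of 5 tested genes of eosinophils, basophils and mast cells, 3, 4, 3 and 0 were called lower in dogs 1 to 4 (7.76%, 10.1%, 5.5% and 1.57% of all probes) and 0, 1, 1 and 0 higher, the 1 being CCR3 each time. The part of platelets, macrophages or eosinophils in the changes of the 5 genes was not tested.

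Of 6 T and NK cell genes, 4, 6, 4 and 0 were called lower in dogs 1 to 4 (7.76%, 10.1%, 5.5% and 1.57% of all probes). The dimmer probe of CD8A was called lower in all 4 dogs (-1.71, -6.81, -1.56 and -1.03). The brighter CD8A probe, which stood for the gene in these counts, changed by -0.34, -4.84, -0.23 and -0.36 and was called lower in dog 2 alone. KLRD1 fell by 6.42 in dog 2, where CD28 was at least 29.6-fold and ICOS at least 11-fold lower. Of 6 stroma genes, 3, 4, 4 and 1 were called lower, beside the same shares of all probes. The epithelial list, relevant to SLPI, had 2 tested genes. CFTR rose by 3.02 (SE 0.79) in dog 2 (1 of 3 sensitive arrays well above background) and fell by 5.47 (SE 0.79) in dog 3. Its changes of 0.47 in dog 1, where SLPI fell, and -1.71 in dog 4 were not called, and CLDN3 made 0 calls. The liver list, relevant to SERPINA1, had 3 tested genes and 0 calls in dogs 1, 3 and 4. Over all probes 7.76%, 5.5% and 1.57% were called lower in these dogs and 3.55%, 1.26% and 3.77% higher. In dog 2 APOC3 rose by 2.26 and APOH fell by 1.33, each with arrays that overlapped between the phases and 1 of 3 arrays of the dimmer phase well above background. The part of epithelial or liver cells in the changes of SLPI and SERPINA1 was not tested.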

How the data were processed

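The authors deposited each array's spot intensity values as written by Feature Extraction (10.7.3.1, per the file headers), with the processed signal already background-subtracted within each array and not normalised between arrays. The authors' value table held the raw median intensity of each spot (largest difference 0), on a linear scale and uncentred, with medians per array of 97 to 141. No genome coordinates were used. Control spots and outlier spots were left out, 0 spots were saturated, repeated spots were averaged, and log2 of the signal was taken relative to the 75th percentile of each array. Unversioned accessions were looked up in a RefSeq table (UU_Cfam_GSD_1.0), used for names alone, which named 1313 of 43603 probes (832 genes). Other transcripts stayed unnamed, and some listed genes are not reported here.

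Limma (version 3.58.1, R 4.3.3) was fitted to all 24 arrays in 8 groups for each dog, and, across dogs, to the mean of each dog and phase, blocked by dog; tests were two-sided and were tested on simulated data. The 5 genes and the gene lists were chosen with earlier results of these data known. Named genes were all probes of the 5 genes, every named neutrophil, antiprotease and granulocyte gene, up to 3 of largest change from the other lists described, and the 3 genes most alike each member. Alternatives were other background correction, scaling, filters, probe choice, slides, blocks and left-out arrays or dogs. Across dogs the number of dogs (4) limits the precision. Within a dog the 3 arrays per phase limit it, and their spread may be technical.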

Additional observations from a re-analysis of the deposited data

Results flagged for a closer look

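The change between the phases differed between the 4 dogs, by limma's F-test of the interaction over 24 arrays, for all 9 tested probes. The adjusted p was 3.33e-10 for CAMP (changes of -5.46, 4.49, -5.42 and -0.38 in dogs 1 to 4) and 0.00295 for CXCR2 (-2.17, 1.05, -0.01 and 0.33). For MMP9 it was 1.46e-16 for the brightest probe (-1.97, 2.52, -4.92 and -0.22), 2.3e-18 for the second and 0.00029 for the dim probe A_11_P053471. That last probe was tested only because it was well above background in the resistant phase of dog 4, where it is high, so its p is favoured by the filter. For SLPI it was 1.08e-05 for the brighter probe (-2.34, 1.16, -4.69 and 0.21) and 2.43e-15 for the other (at least 9.63-fold and 174-fold lower in dogs 1 and 3, where no resistant array was well above background, and changes of 0.89 and 0.01 in dogs 2 and 4). For SERPINA1 it was 1.37e-19 for the brighter probe (-5.69, -1.65, -1.66 and 0.75) and 1.16e-10 for the other. These p-values rest on the spread between arrays. The same test passed for 80.5% of all probes.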

How the results depend on the processing

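The changes of CAMP, MMP9 and SERPINA1 in dogs 1 to 3 kept their direction and call under every alternative run, except that after normexp background correction with quantile normalisation the change of SERPINA1 in dog 3 was -0.95, under 2-fold. Over the alternatives, CAMP ran from -5.90 to -3.89 in dog 1, 3.11 to 4.87 in dog 2 and -6.55 to -4.31 in dog 3, MMP9 from -2.09 to -1.56, 1.49 to 2.66 and -5.06 to -2.47, SERPINA1 from -5.76 to -3.77, -1.67 to -1.30 and -1.69 to -0.95, and SLPI in dog 3 from -6.30 to -3.19. In dog 1, 3 genes instead of 5 were called lower after normexp, with the slide as a block and within slide 1, since CXCR2 (-0.67 after normexp, -0.60 with the slide) and SLPI (-0.95 and -0.84) lost their calls. In dog 2, 4 genes instead of 2 were called higher with median scaling and with quantile normalisation, CXCR2 and SLPI being added, and 1 when all 24 arrays had to be well above background, where MMP9 was not tested. Left-out arrays gave 2 to 3 in dog 2, and within slide 3, with 1 sensitive array, SLPI was also called higher there (1.21). The sign turned for CXCR2 in dog 3 (0.082 with median scaling, 0.087 with quantile normalisation, 0.085 with the slide as a block and within slide 4, 0.011 with the slide as a random block, and -0.077 to 0.070 with arrays left out), for MMP9 in dog 4 (0.016 in the authors' value table) and, across dogs, for MMP9 without dog 3 (0.11) and CXCR2 without dog 1 (0.46). The cause was not tested.

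Calls over all probes in dogs 1 to 4 were 3907, 4700, 2337 and 1844. They were 997, 1880, 707 and 225 after normexp, 1796, 2593, 1041 and 535 when all 24 arrays had to be well above background, 1518, 2622, 1066 and 298 in the authors' value table, and 3016 in dog 4 without a filter. With left-out arrays they ran from 3298 to 4465, 4261 to 4972, 2165 to 2862 and 1523 to 2254. The share called higher was 31.4% in dog 1 (45.7% with median scaling, 45.4% after quantile normalisation), 26.0% in dog 2 (37.4% with median scaling), 18.7% in dog 3 (8.72% in the authors' value table, and 30.6%, or 877 instead of 436 probes, without resistant array 1) and 70.7% in dog 4 (48.4% after quantile normalisation, 40.9% after normexp). With median scaling the median change over all probes was 0.13 in dog 1 and 0.25 in dog 2, against -0.05 and 0.10. Across dogs, 0 probes passed, and 2160 with the group as a random block. Same-numbered arrays of a dog did not deviate together (correlations of -0.12 to 0.09), and with the replicate block there were 3772, 4591, 2260 and 1737 calls, and no call of the 5 genes changed. Dim arrays limit the values of the SLPI and MMP9 probes below background.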
